A study of Mus musculus with 12 samples.

Results

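Transcripts of 10 genes that are best known from myeloid white blood cells were followed in cultures of kidney epithelium. The genes were 10 of the 20819 in the deposited expression table. Nos2, Gpr84 and Fyb were chosen because myoglobin raised them in these same libraries, so their change against vehicle is given as a description and carries no test. The other 7, Ptprc, Cd68, Lyz2, Csf1r, Tyrobp, Laptm5 and Adgre1, were chosen because they mark leukocytes, and their changes were tested. The cultures were tubuloids, which are clusters of tubular epithelial cells grown in a basement membrane gel. They came from the renal cortex of 4 wildtype mice, and the labelled cell type is renal tubular epithelial cells. All 3 groups were wildtype and were harvested after 12 hours: a vehicle group, a group given myoglobin, and a group given myoglobin together with 100 nM dexamethasone, with 4 libraries each. Dexamethasone without myoglobin is not among the samples. The labels number the libraries of each group from 1 to 4 without saying that a number stands for a mouse, so p-values measure only the spread between these samples. A tubuloid culture has no circulation, but the labels do not say whether leukocytes of the dissociated cortex were removed.

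Myoglobin is the haem protein of muscle, and it reaches the tubule when muscle breaks down. Macrophages and neutrophils are the leukocytes that most often enter an injured kidney, and they carry surface receptors, lysosomal enzymes and adaptor proteins that serve phagocytosis and microbial killing. Several of these genes are not exclusive to leukocytes: inducible nitric oxide synthase, for one, is also made by epithelial cells exposed to cytokines. Dexamethasone is a synthetic ligand of the glucocorticoid receptor and is used to dampen inflammatory transcription.

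Levels are normalised read counts, that is, reads per gene after scaling for library depth. Estimated reads in genes numbered 5.51 to 5.87 M per vehicle library. They numbered 5.33 to 5.92 M per myoglobin library and 3.25 to 5.53 M per library given both agents. Replicate 4 of myoglobin with dexamethasone stood apart: its read number was the lowest, and it listed 2179 genes at 0 where each remaining library listed 1051 to 1544. Its deposited values nevertheless summed highest, to 5.725 M, against 5.253 to 5.372 M in each remaining library. The changes of Nos2, Gpr84, Fyb and Ptprc with added dexamethasone, and that of Cd68 between vehicle and both agents, are also given without it. Changes are differences on the log2(value + 1) scale ± SE from 1 limma-trend fit of all 12 libraries, and p-values were adjusted by the Benjamini-Hochberg method over 14558 tested genes. A gene was tested if it reached a value of 10 in at least 4 libraries. Of the 10 genes, 7 passed that filter. Csf1r, Tyrobp and Laptm5 did not. Nos2, Gpr84 and Fyb passed it only through the myoglobin-treated libraries. With vehicle Nos2 and Gpr84 did not reach 10, and Fyb lay between 6 and 10.

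The DNA before the RefSeq start of 3 of the genes is shown because they represent 3 courses across the groups: Fyb was among the genes chosen for their rise, Ptprc fell with myoglobin and was higher again with dexamethasone added, and Cd68 was lowest with both agents. The stretches are from RefSeq on GRCm38.p6 and are read 5′ to 3′ toward the gene, ending next to that start. Capitals mark matches to short motifs: GAGGAA (bound by PU.1, a myeloid transcription factor), TTNNGNAA (C/EBP factors), TGANTCA (bound by AP-1) and the core promoter element TATAAA, each searched on both strands, so that some, such as TTCCTTAA, TTGCTAAA and TTTATA, are matches read on the other strand.

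Fyb, chr15:6579597-6579846, plus strand, inside the long span that the table gives the gene and outside annotated exons: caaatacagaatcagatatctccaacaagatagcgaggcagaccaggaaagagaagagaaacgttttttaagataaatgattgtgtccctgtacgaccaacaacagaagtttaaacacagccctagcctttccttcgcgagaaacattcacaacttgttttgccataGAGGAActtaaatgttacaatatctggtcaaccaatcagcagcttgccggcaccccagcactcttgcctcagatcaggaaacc

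Ptprc, chr1:138175307-138175555, minus strand, also inside the span that the table gives the gene and outside annotated exons: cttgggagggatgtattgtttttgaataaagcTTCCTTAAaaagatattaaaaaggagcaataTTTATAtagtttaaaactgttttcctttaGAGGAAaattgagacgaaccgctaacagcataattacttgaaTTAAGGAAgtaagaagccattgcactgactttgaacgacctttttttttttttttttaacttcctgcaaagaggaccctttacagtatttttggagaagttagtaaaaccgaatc

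Cd68, chr11:69666171-69666420, minus strand: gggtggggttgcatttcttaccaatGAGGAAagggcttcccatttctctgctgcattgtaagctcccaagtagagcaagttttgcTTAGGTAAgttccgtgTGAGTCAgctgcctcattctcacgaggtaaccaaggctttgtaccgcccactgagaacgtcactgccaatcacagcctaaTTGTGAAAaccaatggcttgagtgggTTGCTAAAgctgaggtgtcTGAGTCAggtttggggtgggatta

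RefSeq windows were found for 6 of the 10 genes, 7 windows in all. Windows 1 and 2 of Ptprc overlap each other, so the 7 are not separate stretches. Of 250 bases per window, 191 lie in annotated exons for Laptm5, 174 for Gpr84 and 162 for window 2 of Ptprc. GAGGAA was present in 4 of the 7 windows and in 23.3% of the 32851 windows of all genes. TTNNGNAA was present in 4 of 7 against 36.8% of all windows, TATAAA in 2 of 7 against 12.4%, and TGANTCA in 1 of 7, that of Cd68, against 6.75%. The kappaB motif of NF-kB dimers, the paired half-sites of interferon-responsive genes and the palindromic glucocorticoid response element, longer motifs named without their letters, were in 0 of 7 windows, and in 7.25%, 2.98% and 0.387% of all windows. A match describes letters in a window and does not show a bound factor.

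Nos2 encodes inducible nitric oxide synthase, the enzyme with which activated macrophages make nitric oxide from arginine (mm10, chr11:78920787-78960254, plus strand). Its value was 4, 7, 3 and 8 in vehicle replicates 1 to 4, and 85, 97, 62 and 75 with myoglobin. With myoglobin and dexamethasone it was 59, 79, 45 and 37. Every myoglobin-treated library, with or without dexamethasone, lay above every vehicle library. The group means were 5.5 ± 2.38, 79.8 ± 14.9 and 55 ± 18.4 (SD, n = 4), so that the mean with myoglobin was 14.5 times that with vehicle.

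Gpr84, a receptor for medium-chain fatty acids found on activated macrophages and neutrophils (chr15:103308235-103310612, minus strand), was near the limit of detection with vehicle. The 4 vehicle values were 1, 1, 3 and 1, against 32, 27, 31 and 31 with myoglobin and 28, 21, 42 and 19 with both agents. The 2 sets with myoglobin overlapped each other and both lay above vehicle. The group means were 1.5 ± 1, 30.2 ± 2.22 and 27.5 ± 10.4 (SD, n = 4). The ratio of 20.2 for myoglobin over vehicle rests on vehicle values of 1 to 3.

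Fyb encodes an adaptor protein that links immune receptors to integrin activation and the actin skeleton (chr15:6522853-6663313, plus strand). Its value was 6, 10, 10 and 9 with vehicle, then 150, 130, 112 and 112 with myoglobin, and 219, 178, 161 and 107 with myoglobin and dexamethasone. The vehicle libraries were again all below the other 8. The highest 3 values of all 12 libraries were replicates 1 to 3 of the group with both agents. The group means were 8.75 ± 1.89, 126 ± 18.1 and 166 ± 46.4 (SD, n = 4).

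On the log2(value + 1) scale the rise with myoglobin was 3.69 ± 0.276 for Nos2, 3.71 ± 0.292 for Gpr84 and 3.72 ± 0.202 for Fyb. The order of the 3 depends on the pseudocount: with 10 the changes were 2.53, 1.81 and 2.85, and with 0.1 they were 3.92, 4.41 and 3.85. With both agents, the change from vehicle was 3.13 for Nos2, 3.52 for Gpr84 and 4.08 for Fyb. These contrasts chose the genes, or share the vehicle libraries with the one that did. For reference, 8.71% of all tested genes were called higher with myoglobin and 25% had vehicle and myoglobin libraries that did not overlap.

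**Figure D1:**
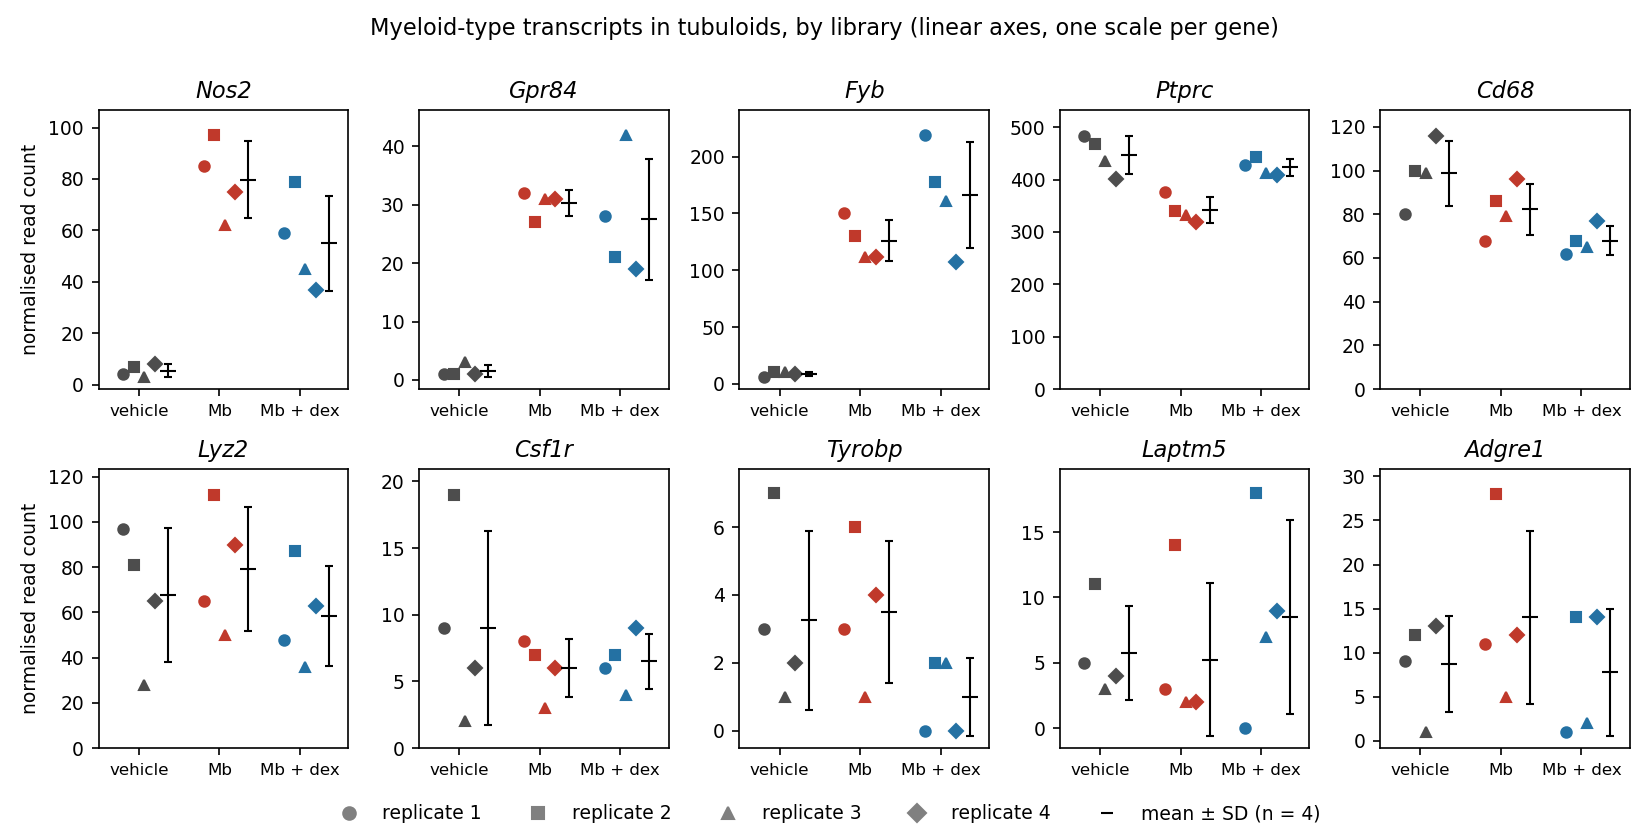
Normalised read count (y axis, linear, 1 scale per gene) of the 10 genes in the 12 libraries, grouped by treatment (Mb, myoglobin; dex, dexamethasone). Symbols show the replicate number, and the black mark with its bar shows the mean ± SD of 4 libraries. Nos2, Gpr84 and Fyb sit at 10 or less in all vehicle libraries, while Ptprc sits between 320 and 484 in all 12.

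Dexamethasone added to myoglobin did not give an adjusted p below 0.05 for any of the 3 genes. This contrast shares the myoglobin libraries with the one that chose them. Nos2 was lower by 0.57 on average (log2 change -0.57 ± 0.276, 95% interval -1.15 to 0.02, adjusted p = 0.241), with 3 of the 4 libraries below the lowest library given myoglobin alone. Gpr84 differed by -0.20 ± 0.292 (interval -0.82 to 0.42, adjusted p = 0.732). Fyb was higher by 0.36 ± 0.202 (interval -0.07 to 0.79, adjusted p = 0.307). The ratio of the means with to without dexamethasone was 0.69 for Nos2, 0.909 for Gpr84 and 1.32 for Fyb. Whether the genes' responses differed from each other was not tested.

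The shallow replicate 4 held the lowest value of its group for all 3 genes. Without it, the change of Fyb with dexamethasone was 0.56 (adjusted p = 0.0645), that of Nos2 was -0.40 (adjusted p = 0.437) and that of Gpr84 was -0.05 (adjusted p = 0.95). When the fit weighted libraries by their fit to the group, giving this one a weight of 0.148, Fyb passed the threshold, at 0.51 with an adjusted p of 0.043.

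Per kilobase of exon, so that genes can be compared, Fyb reached 23.4 with myoglobin and 30.9 with both agents, Nos2 18.1 and 12.5, and Gpr84 17.5 and 15.9. With vehicle the same levels were 1.62, 1.25 and 0.87. Among 15415 protein-coding genes, these levels put Nos2 at percentile 9.87 with vehicle and 30.2 with myoglobin, Gpr84 at 7.66 and 29.9, and Fyb at 11.5 and 33.3. The exons of all annotated transcripts of Fyb are together longer than its longest transcript, and on the length of the latter its levels were 3.28, 47.2 and 62.3.

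Ptprc encodes CD45, the receptor tyrosine phosphatase of nucleated blood cells (chr1:138062861-138175708, minus strand). It had the highest read counts of the 10 genes. With vehicle its value was 484, 468, 435 and 401. It was 377, 340, 332 and 320 with myoglobin, and 428, 444, 413 and 408 with both agents. All 4 myoglobin libraries lay below all vehicle libraries and below all libraries with dexamethasone, while the vehicle and dexamethasone sets overlapped. Of all tested genes 25% had no overlap between vehicle and myoglobin, and 13.2% had none between myoglobin with and without dexamethasone.

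Ptprc fell with myoglobin, from 447 ± 36.8 to 342 ± 24.6 (SD, n = 4), a log2 change of -0.38 ± 0.0628 (limma-trend, adjusted p = 0.000408). It was the only one of the 4 tested identity genes to be called in this comparison, in which 18.3% of all tested genes were called and 9.62% were called lower. It rose when dexamethasone was added, to 423 ± 16.2, by 0.31 ± 0.0628 (adjusted p = 0.00767), in a comparison that called 6.98% of tested genes, 3.08% higher and 3.9% lower. Against vehicle the level with both agents differed by -0.08 (interval -0.21 to 0.06, adjusted p = 0.388). The rise with dexamethasone was 0.33 (adjusted p = 0.00631) without the shallow replicate 4. It had an adjusted p of 0.102 without the 3 libraries numbered 2 and of 0.0811 without the 3 numbered 3, where 9 libraries were left.

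Per exonic kilobase Ptprc reached 24.4 with vehicle, 18.7 with myoglobin and 23.1 with both, which is percentile 33.4, 30.7 and 33.8 among protein-coding genes. The exons of all its annotated transcripts together are much longer than its longest transcript, and on the length of the latter the levels were 77.9, 59.6 and 73.7. Reads of an unspliced or partial transcript cannot be told apart from those of the full messenger RNA in a count per gene.

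Cd68 encodes macrosialin, a lysosomal glycoprotein abundant in macrophages and present in other cells with active lysosomes (chr11:69664213-69666153, minus strand). Its value was 80, 100, 99 and 116 with vehicle, 68, 86, 79 and 96 with myoglobin, and 62, 68, 65 and 77 with both agents. Each group overlapped its neighbour, but the libraries with both agents were all below the vehicle libraries. The means were 98.8 ± 14.7, 82.2 ± 11.8 and 68 ± 6.48 (SD, n = 4).

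Neither step alone passed the test for Cd68: the log2 change was -0.26 with myoglobin (adjusted p = 0.197) and -0.26 with dexamethasone added (adjusted p = 0.246). Cd68 fell between vehicle and both agents, by 0.52 (limma-trend, adjusted p = 0.00737). In that comparison 28.6% of tested genes were called, 14.6% lower, and 28.6% had groups that did not overlap. Without the shallow replicate 4 the log2 change was -0.585 (adjusted p = 0.00439). Without the 3 libraries numbered 2 or the 3 numbered 3 that adjusted p was 0.0618 and 0.0624. Per exonic kilobase Cd68 had the highest level of the 10 genes with vehicle, at 78.6, and stood at 65.4 with myoglobin and 54.1 with both.

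Lyz2 encodes the lysozyme that macrophages and granulocytes secrete (chr10:117277331-117282321, minus strand). It read 97, 81, 28 and 65 with vehicle, 65, 112, 50 and 90 with myoglobin, and 48, 87, 36 and 63 with both agents. The 3 ranges overlapped widely, and replicate 3 was the lowest of each group. The log2 change was 0.29 ± 0.348 with myoglobin (adjusted p = 0.629) and -0.44 with dexamethasone added (adjusted p = 0.482). Its near copy Lyz1 was not analysed here, and reads shared by the copies may have been dropped or split in counting.

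Adgre1 encodes F4/80, an adhesion receptor that marks mouse macrophages (chr17:57358691-57483527, plus strand). Its value was 9, 12, 1 and 13 with vehicle, 11, 28, 5 and 12 with myoglobin, and 1, 14, 2 and 14 with both. The libraries of a group differed from each other more than the groups did. The log2 change was 0.73 ± 0.734 with myoglobin (adjusted p = 0.56) and -1.08 with dexamethasone added (adjusted p = 0.408).

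Csf1r, Tyrobp and Laptm5 stayed below 20 in every library. Csf1r, the receptor through which macrophages depend on their growth factor (chr18:61100598-61132149, plus strand), read 9, 19, 2 and 6 with vehicle, 8, 7, 3 and 6 with myoglobin, and 6, 7, 4 and 9 with both. Tyrobp, the signalling adaptor DAP12 of myeloid receptors (chr7:30413760-30417585, plus strand), read 3, 7, 1 and 2, then 3, 6, 1 and 4, then 0, 2, 2 and 0. Laptm5, a lysosomal membrane protein of blood cells (chr4:130913125-130936141, plus strand), read 5, 11, 3 and 4, then 3, 14, 2 and 2, then 0, 18, 7 and 9.

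All 3 pairs of groups overlapped for each of these 3 genes. In a fit without the filter on low values none of them was called, and the smallest of their adjusted p-values was 0.167. Differences at such values were not detectable at this depth, which does not show that they were absent. In bulk samples fewer cells of a type and less RNA per cell cannot be told apart.

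Other leukocyte markers were read beside these genes. Of 30 listed macrophage and monocyte markers 25 are in the table, and 14 of the 25 stayed below 20 in all 12 libraries. A set of 10 markers, picked for low values after these were seen, spanned 0 to 19, a range that follows from the choice. It holds Csf1r and Tyrobp, and Laptm5 of the pan-leukocyte list. Also in it are the complement genes C1qa, C1qb and C1qc, listed at 0 to 3, 0 to 3 and 0 to 4, and Spi1, which encodes PU.1, at 0 to 7. Of the 20 pan-leukocyte markers measured, 10 stayed below 20, among them Coro1a, a leukocyte actin-binding protein, at 2 to 10. Other genes of these lists were higher, such as Cd14 at 324 to 577, Aif1 at 49 to 129 and Arhgdib at 342 to 577. Among them too were Mpeg1 at 28 to 77, Cd53 at 32 to 124 and Itgb2 at 27 to 74. Most epithelial markers were higher still: Epcam, the epithelial adhesion molecule, lay between 930 and 1488, and Cdh1, E-cadherin, between 2216 and 3384.

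**Figure D2:**
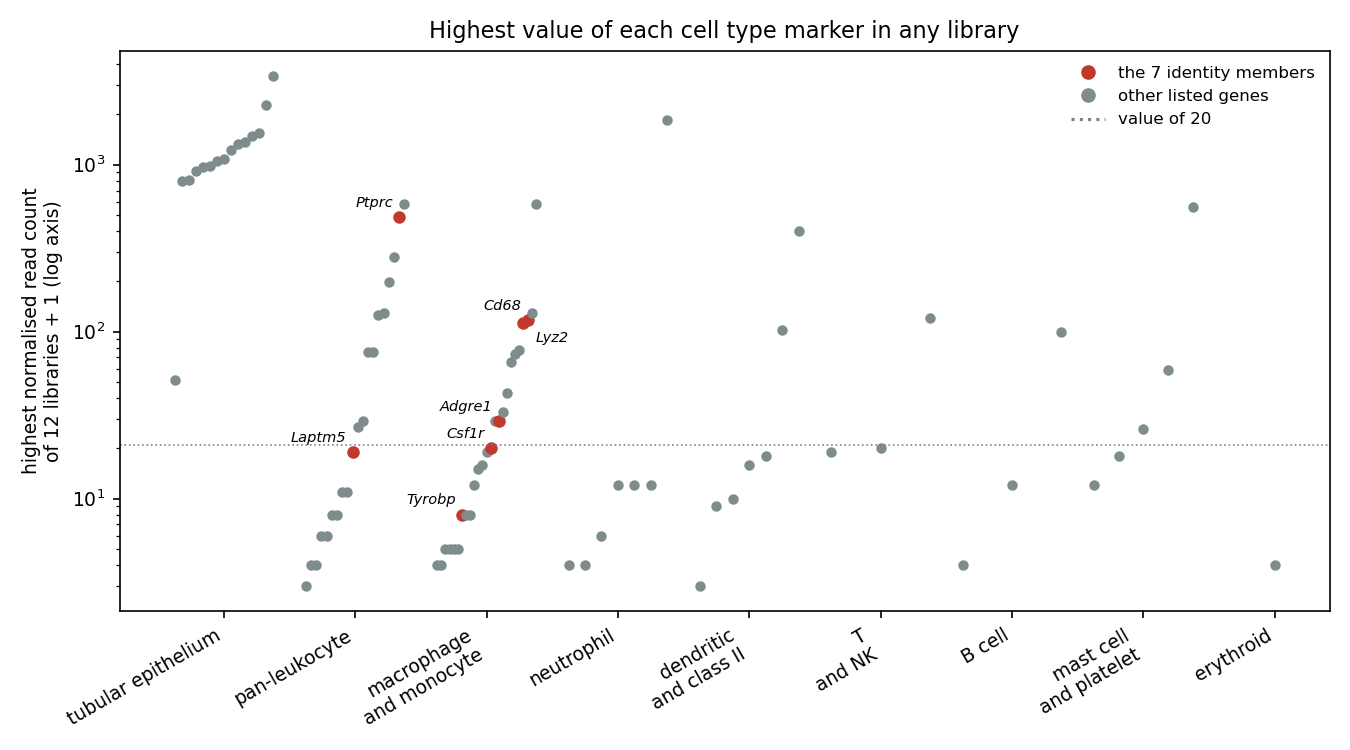
Highest normalised read count plus 1 (log axis) that each listed marker reached in any of the 12 libraries, with genes of a list spread along the x axis in rising order and the dotted line at a value of 20. The 7 identity genes are in red, from Tyrobp at 7 to Ptprc at 484, and most epithelial markers lie well above them.

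Some leukocyte-listed genes changed. The lists were drawn up with earlier results of these data known, so counts of calls in them are descriptions. With myoglobin 8.71% of all tested genes were called higher and 9.62% lower. Of 11 tested macrophage and monocyte markers 4 rose with myoglobin and 0 fell, with a median log2 change of 0.49 against 0.00 over all tested genes. Without the 3 libraries numbered 2, or the 3 numbered 3, 2 of them rose. Aif1, a calcium-binding protein of macrophages, rose from 51.5 ± 3.79 to 106 ± 15.3 (SD, n = 4; log2 change 1.03, adjusted p = 2.66e-05). Cd14, the endotoxin co-receptor, rose from 352 ± 24.1 to 507 ± 43.7 (0.52, adjusted p = 0.00134). The others were Trem2, a lipid-sensing receptor (0.71, adjusted p = 0.0122), and Cybb, the catalytic unit of the phagocyte oxidase (1.18, adjusted p = 0.0468).

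Dexamethasone added to myoglobin lowered 2 of these 11 markers and raised 0, with a median of -0.51 against 0.01 over all tested genes. In this comparison 3.9% of all tested genes were called lower and 3.08% higher. Aif1 fell to 73.8 ± 9.74 (log2 change -0.52, adjusted p = 0.0195). Ctss, the lysosomal protease cathepsin S, fell from 36.5 ± 6.14 to 22.2 ± 2.99 (-0.68, adjusted p = 0.032). Without the 3 libraries of number 1, 2 or 3 both calls were lost, with an adjusted p of 0.0786 to 0.0885 for Aif1 and 0.129 to 0.142 for Ctss. Without myoglobin replicate 1 alone it was 0.0581 and 0.0839, and for Ctss it was 0.0586 to 0.103 without any 1 of myoglobin replicates 2 and 3 or replicates 1 and 3 of both agents.

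Among pan-leukocyte markers, 2 of 10 tested rose with myoglobin and 2 fell, where 8.71% of all tested genes were called higher and 9.62% lower. Arhgdib rose by 0.42 (adjusted p = 2.76e-05) and the transcription factor gene Ikzf1 by 0.25 (adjusted p = 0.0141). Besides Ptprc, Was fell: it encodes the Wiskott-Aldrich protein, which drives actin branching, and went from 63 ± 9.13 to 31.2 ± 3.3 (-0.98, adjusted p = 8.21e-05). Markers of other blood cells gave single calls: Ltf (lactoferrin) rose among neutrophil genes, Cd74 (the class II invariant chain) among antigen-presenting genes and Cd79b among B cell genes, while Itga2b (the platelet integrin) fell. The call of Ltf (adjusted p = 0.0284) was lost without any 1 of vehicle replicates 1 and 2 or myoglobin replicates 2, 3 and 4 (0.0618 to 0.0889). The other 6 neutrophil genes in the table lay between 0 and 11 in all libraries and were not tested. S100a8, a calcium-binding protein of neutrophils, was 0 to 1 with vehicle, 2 to 9 with myoglobin and 5 to 11 with both agents, so that the vehicle libraries lay below the others. Of all tested genes 25% had no overlap between vehicle and myoglobin, and 28.6% none between vehicle and both agents. The vehicle libraries of the remaining low neutrophil genes overlapped the treated ones, as for S100a9 at 1 to 2 with vehicle and 1 to 3 with myoglobin.

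Genes of macrophage activation were counted without Nos2 and Gpr84, which are on that list and were chosen for their rise. Of the 15 others tested, 10 rose with myoglobin and 1 fell, where 8.71% and 9.62% of all tested genes were called higher and lower. Their median log2 change was 1.14. This list too was drawn up with earlier results of these data known, so the counts describe it and do not test it. Acod1, the enzyme that makes itaconate, went from 72.2 ± 19.7 to 412 ± 45.2 (2.53, adjusted p = 7.86e-09). Tnf went from 181 ± 4.79 to 460 ± 7.94 (1.34, adjusted p = 9.33e-12). The gene that fell was Ptges, a prostaglandin E synthase (-0.21, adjusted p = 0.00671).

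With dexamethasone added to myoglobin, 1 of the 15 rose and 1 fell, with a median of -0.10. The shares over all tested genes were 3.08% called higher and 3.9% called lower. Ptges rose by 0.28 (adjusted p = 0.00291). Cxcl10, an interferon-inducible chemokine, fell by 0.78 (adjusted p = 0.00569), from 53.2 ± 5.91 to 30.8 ± 5.25. A p that missed the threshold in the other 13 does not show that dexamethasone left them as they were.

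**Figure D3:**
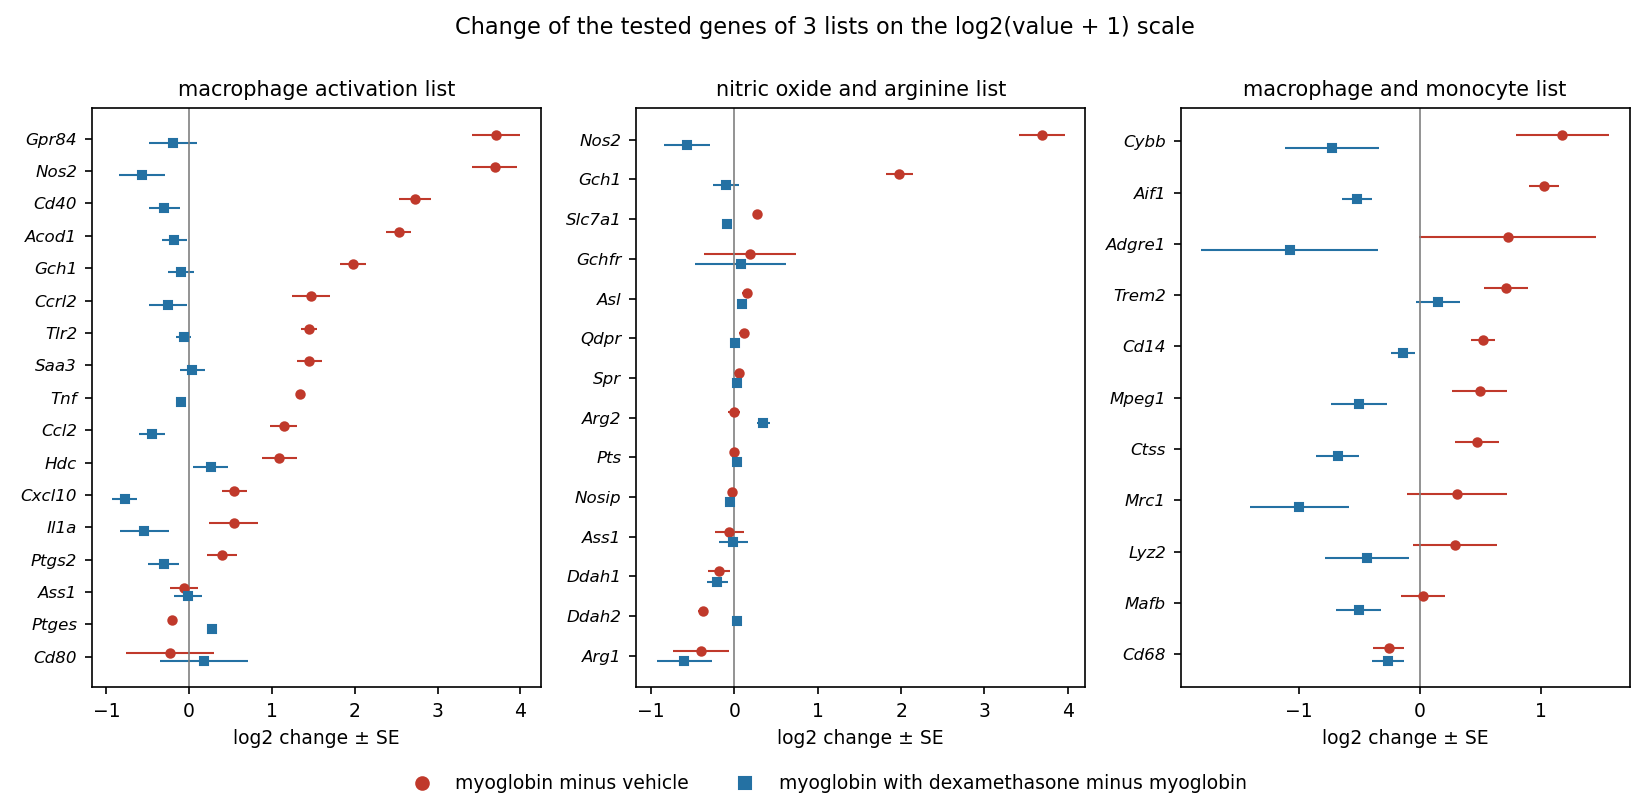
Log2 change ± SE (x axis) of the tested genes of 3 lists, without 1 gene of the middle list that is not reported here, ordered by the change with myoglobin. Red circles are myoglobin minus vehicle and blue squares are dexamethasone added to myoglobin. In the activation list the red circles reach 3.71 for Gpr84, while the blue squares lie between -0.78 for Cxcl10 and 0.28 for Ptges.

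Nitric oxide synthase needs arginine and the cofactor tetrahydrobiopterin. Of 14 tested genes of nitric oxide and arginine handling other than Nos2, 2 rose with myoglobin and 1 fell, where 8.71% of all tested genes were called higher and 9.62% lower. The 2 were Gch1, the first enzyme of tetrahydrobiopterin synthesis, from 50.2 ± 13.3 to 196 ± 12.3 (1.98, adjusted p = 2.65e-07), and Slc7a1, a cationic amino acid carrier (0.27, adjusted p = 0.00295). Ddah2, which degrades endogenous inhibitors of the synthases, fell by 0.37 (adjusted p = 0.000408). Added dexamethasone raised the arginase gene Arg2 by 0.35 (adjusted p = 0.011).

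Gpr84 belongs to the receptors for fatty acids and metabolites. Of the 3 others tested, 1 rose with myoglobin, Hcar2, the niacin receptor, from 18.5 ± 3.7 to 47.5 ± 9.18 (1.32, adjusted p = 0.000925). Added dexamethasone gave 0 calls among the 3. Over all tested genes 8.71% were called higher with myoglobin, and 6.98% were called with dexamethasone added.

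Of 12 tested partners and relatives of the Fyb adaptor, Fyb itself left out, 1 rose with myoglobin, Fyb2, and 1 fell, Was. This is near the shares over all tested genes, 8.71% called higher and 9.62% lower. With dexamethasone added 6.98% of all tested genes were called. Fyb2, a related adaptor, went from 224 ± 28.5 to 297 ± 28.5 (0.41, adjusted p = 0.00567). When the shallow replicate 4, which enters the shared estimate of spread, was left out, 3 fell. Added dexamethasone gave 0 calls among the 12. Tyrobp signals through ITAM motifs, and 4 of 7 tested genes of that pathway rose with myoglobin, Trem2 among them, and 0 fell (1 fell without that same library). The kinase gene Lyn rose by 1.03 (adjusted p = 5.51e-09), and the kinase gene Syk went from 95.8 ± 14.2 to 163 ± 11.7 (0.77, adjusted p = 0.000144). Tyrobp, to which Trem2 couples, lay between 1 and 6 in the same 4 libraries.

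The ligands of Csf1r, Csf1 and Il34, were measured well above the receptor. Csf1, its main ligand, went from 544 ± 14.7 to 1250 ± 62.5 with myoglobin (1.20, adjusted p = 4.37e-11), and Csf3, the granulocyte factor, from 150 ± 22 to 425 ± 28.2 (1.5, adjusted p = 3.08e-08). Of 5 tested genes in this list 3 rose with myoglobin, against 8.71% of all tested genes, and the remaining one was Csf2. Csf2ra, a related receptor in the list, lay between 219 and 271 and was not called. With dexamethasone added, Il34, the other ligand of Csf1r, rose by 0.39 (adjusted p = 0.00127) and Csf2 fell by 0.94 (adjusted p = 0.0138, and 0.0548 without myoglobin replicate 4).

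Relatives of the identity genes were read beside them. With myoglobin 8.71% of all tested genes were called higher and 9.62% lower, and with dexamethasone added 6.98% were called. With both agents against vehicle 13.9% were called higher and 14.6% lower. Of 12 receptor tyrosine phosphatases tested besides Ptprc, 1 rose with myoglobin, Ptprg, and 1 fell, Ptpru, which is near those shares. With Ptprc counted 2 fell, and 5 did without the shallow replicate 4. Added dexamethasone gave 0 calls among the 12. Of 13 tested lysosomal genes other than Cd68 and Lyz2, 0 were called with myoglobin (limma-trend). With those 2 counted, 2 rose and 1 fell without that same library. With both agents against vehicle, where Cd68 fell, 5 of the 13 rose and 0 fell. That count includes the shallow replicate 4, whose deposited values summed highest, and is not given without it. The 15 lysosomal genes with values, members left out, summed to 8612 to 9066 per vehicle library. With both agents they summed to 9158 to 12405, a far wider spread. Of 8 tested adhesion receptors related to Adgre1, 1 rose with myoglobin and 3 fell.

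The identity genes other than Ptprc and Cd68 varied with the library number. For Lyz2, Adgre1, Laptm5, Csf1r and Tyrobp in the 3 groups, 15 sets of 4 libraries, the library numbered 2 was the highest or tied for it in 11 sets and the lowest in 0. The library numbered 3 was the lowest or tied for it in 12 sets and the highest in 1. The summed value of these 5 genes was 123, 130, 35 and 90 with vehicle, 90, 167, 61 and 114 with myoglobin, and 55, 128, 51 and 95 with both agents. Lyz2 made up most of each sum, for example 97 of the 123 in vehicle replicate 1 and 112 of the 167 in myoglobin replicate 2. The sum therefore largely repeats Lyz2. These 5 genes were grouped after their values were seen, and the pattern was not tested.

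**Figure D4:**
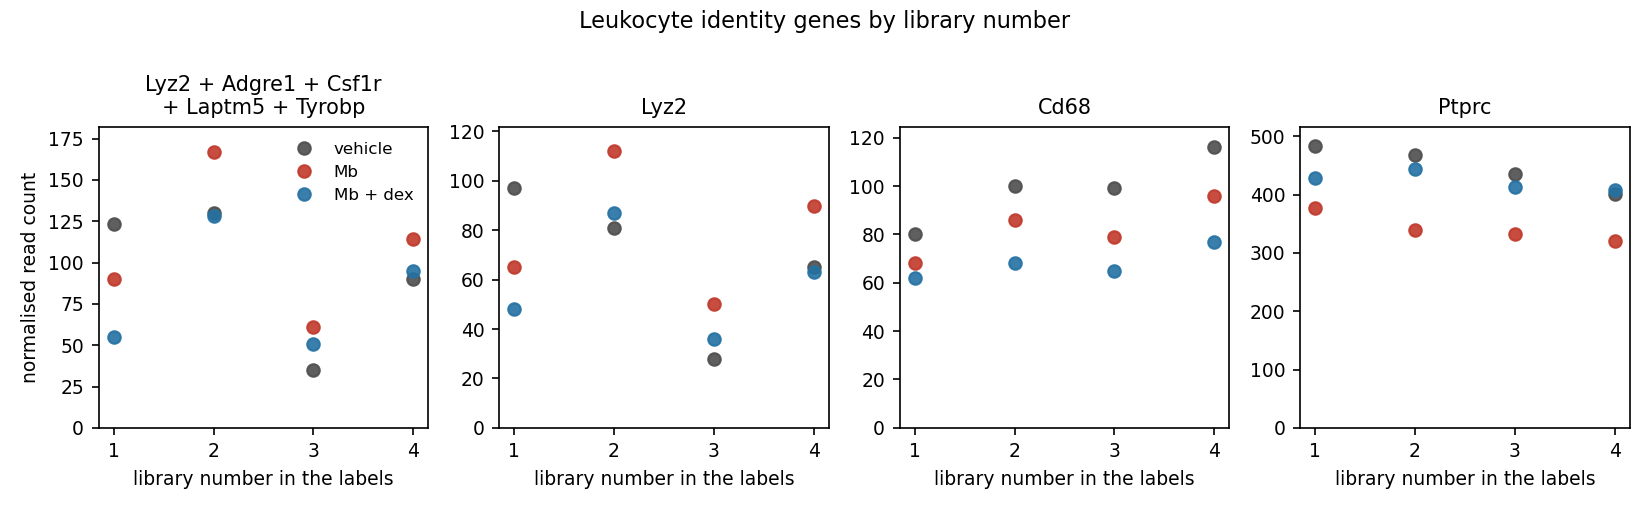
Normalised read count (y axis, from 0) against the library number in the labels (x axis). Panels show the sum of 5 identity genes, which is mostly Lyz2, and then Lyz2, Cd68 and Ptprc alone. Colours are the groups, and each point is 1 library. The sum is lowest in number 3 in each group, at 35, 61 and 51, while Cd68 is highest in number 4 and Ptprc lowest in number 4.

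Cd68 and Ptprc did not share that order. Cd68 was highest in the library numbered 4 and lowest in the one numbered 1 in each of the 3 groups, and Ptprc was lowest in the one numbered 4 in each. As a description over the 12 libraries, deviations from the group mean correlated at 0.86 between Lyz2 and Adgre1, at 0.78 between Lyz2 and Csf1r, at 0.28 between Ptprc and Lyz2, and at -0.83 between Ptprc and Cd68. The deviations of Gpr84 ran against those of Lyz2, at -0.84, and those of Nos2 with them, at 0.56. Those of Gpr84 with vehicle rest on values of 1 to 3, with the 3 in replicate 3, where Lyz2 was lowest. Only some pairs of the 10 genes are given. The points share libraries and their scaling.

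The genes most like each member were sought by Pearson's r of log2(value + 1) over the 12 libraries, which mostly follows the 3 group means. For Nos2 they were Phtf2 (0.99), Dock10 (0.99), Rhobtb2 (0.98), Dse (0.98) and Ripk2 (0.98). For Gpr84 they were Tmem238l, Hacd2, Ltc4s, Chrnb4 and Cyp1b1, at 0.98 to 0.99. Fyb was nearest to Irak2, Cfb, Helz2, Nod2 and Trak1, at 0.99 each.

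Ptprc was nearest to Mecom (0.96), Syn2 (0.96), Gramd1b (0.96), Pcx (0.95) and Pdk2 (0.95). Their group means followed the same course: Syn2, for example, averaged 139 with vehicle, 75.2 with myoglobin and 119 with both agents. None of the 5 is among the leukocyte markers listed here. By deviations within groups, a measure chosen after values were seen, Lyz2 was nearest to Gpnmb (0.95) and Erbb3 (0.95), and Adgre1 to Mmp9 (0.97).

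Overlapping genes on the genome were looked up for Fyb, Gpr84, Ptprc and Csf1r, and those with values were low except at Csf1r. The gene looked up at Ptprc and a further one at Fyb have no values here, so their reads are unknown. Gm7666, within Fyb, lay between 1 and 6, and Gm49482, antisense to Gpr84, between 0 and 5. Hmgxb3, on the opposite strand at the end of Csf1r, lay between 521 and 623, far above Csf1r. The libraries were stranded per the labels, and whether counting used the strand is not given in the sources used here, so the low reads of Csf1r are uncertain in this respect.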

How the data were processed

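Messenger RNA of 12 tubuloid libraries was measured, 4 per treatment. Per the submitters' processing notes, DESeq2 1.36.0, featureCounts 2.0.3, STAR 2.7.10a, Trimmomatic 0.39 and Picard 2.27.4 were used in some role, with build mm10. The deposited values are whole numbers in 20819 genes, with no unit in any header. They were treated as a score, the authors' deposited normalised read count: reads divided by a size factor and rounded, since whole numbers are skipped or doubled at a steady step within a library. Size factors read from these steps gave the estimated reads. There were 0 further columns of per-sample values.

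The values were tested with limma-trend (limma 3.58.1, R 4.3.3) on log2(value + 1), where 1 is the pseudocount, with 3 groups in 1 fit of 12 libraries, for genes that reached 10 in 4 or more libraries. P-values are two-sided, adjusted by Benjamini-Hochberg over 14558 genes within each comparison, with a threshold of 0.05. At unadjusted p below 0.05, 4392, 3226 and 5909 genes passed for myoglobin against vehicle, dexamethasone added to myoglobin, and both agents against vehicle. On data simulated for myoglobin against vehicle over 14558 genes, 98% of 100 changes of 1 on the log2 scale were recovered. Of 100 changes of 2, 100% were recovered, and there were 10 false calls. Recovery at vehicle levels as low as those of Nos2, Gpr84 and Fyb was not tested separately. Nor was recovery at a spread like that of Lyz2 or Adgre1 (SE 0.348 and 0.734). Tables and plots were made in Python 3.11.15 with pandas 2.3.3, matplotlib 3.10.9, scipy 1.17.1 and numpy 2.4.6.

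The members and the gene lists were chosen with earlier results of these data known. Named genes are the 10 members and, from each list and comparison, up to 2 called genes per direction with the smallest p, or the 1 with the smallest p where none was called, together with the genes most like Nos2, Gpr84, Fyb and Ptprc. Cybb, Trem2, Slc7a1, Csf2, marker genes given by their range, overlapping genes and the genes near Lyz2 and Adgre1 were named after their values were seen. Exonic lengths come from GENCODE M21, where 98.9% of genes have the table's coordinates. Other pseudocounts, filters, scalings, library weights, a replicate block and left-out libraries were tried. Of the lists, 1 called gene of the nitric oxide and arginine list is not reported here.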

Additional observations from a re-analysis of the deposited data

Results flagged for a closer look

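In 2 of 30 sets of 4 libraries (10 genes in 3 groups), 1 library lay far from the other 3, with a gap over the range above Dixon's 95% critical value; chance gives this in about 1 in 20 sets. Gpr84 was 3 in vehicle replicate 3 and 1 in each of the other 3 vehicle libraries. Laptm5 was 14 in myoglobin replicate 2, against 2 to 3 in the other 3. Values this low move by a few reads.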

How the results depend on the processing

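The precision is limited by 4 libraries per group, by values under 20 for Csf1r, Tyrobp and Laptm5, and by the shallow replicate 4 of myoglobin with dexamethasone. The 15 tested results of 7 genes were recomputed under each alternative, giving 386 values: 375 kept their direction and side of the threshold, 4 fell short of it (Ptprc and Cd68, in the report), 1 passed it (Fyb) and 6 changed sign. The 6 changes of Nos2, Gpr84 and Fyb against vehicle had no test. Of their 154 values 8, all with another pseudocount, moved by more than the spread between libraries. With a pseudocount of 10 and of 0.1 the change with myoglobin was 2.53 and 3.92 for Nos2 and 2.85 and 3.85 for Fyb. The sign changed for genes that were not called. Lyz2 with both agents against vehicle was 0.068 without vehicle replicate 1, 0.056 without replicate 3 of both agents and 0.136 without all libraries numbered 1, and leaving out libraries gave -0.518 to 0.136. Lyz2 with myoglobin was -0.078 without vehicle replicate 3, in a range of -0.078 to 0.58. Adgre1 with both agents was 0.175 without replicate 1 of that group and 0.297 without all libraries numbered 1, in a range of -1.01 to 0.297. The cause was not tested. Without all 3 libraries of 1 number, a setting chosen after seeing the data, further calls were lost for Ikzf1, Itga2b, Ptprg, Fyb2 and Ptges with myoglobin and for Arg2 and Csf2 with dexamethasone added.

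Calls over all genes numbered 2669 with myoglobin, 1016 with dexamethasone added and 4161 with both against vehicle. With array weights the first 2 were 4314 and 1625, and with only the 2 groups compared the second was 639. Leaving out libraries gave 1393 to 3789, 314 to 1279 and 2404 to 4226. Rescaling to library totals moved the split of both agents against vehicle from 2029 higher and 2132 lower to 1565 and 2648, and no scaling moved the median gene by 0.05. With the replicate number as a block the second comparison had 1788 calls, and no call of the 7 tested genes changed. Of 12 same-numbered pairs 9 correlated over 0.1 (lowest -0.015, highest 0.456), so the numbers were not taken as pairs; 10 of 12 libraries correlated best with their own number, a hint from the data and not the design.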
